A study of Acomys cahirinus and Mus musculus with 6 samples.

Results

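The 10 genes described here encode small leucine-rich proteoglycans and proteins of elastic fibres: decorin (Dcn), lumican (Lum), biglycan (Bgn), fibromodulin (Fmod), prolargin (Prelp), osteoglycin (Ogn), fibrillin-1 (Fbn1), elastin (Eln), fibulin-1 (Fbln1) and fibulin-2 (Fbln2). They were taken by name, as 6 proteoglycans and 4 elastic fibre genes, with no threshold on a measured value. All 10 of them are among the 20381 genes of the count table. They were followed over the authors' annotated cell types and over all 6 libraries, mainly in fibroblasts and chondrocytes.

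Small leucine-rich proteoglycans are secreted proteins, most of them with chains of chondroitin, dermatan or keratan sulfate, that bind fibrillar collagens and set the width and spacing of the fibrils. Elastic fibres have an elastin core laid down on a scaffold of fibrillin microfibrils, with fibulins at the interface. In the ear pinna both kinds of matrix lie in the dermis and in the elastic cartilage plate, whose chondrocytes are known to make elastin.

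The tissue was healing ear punch wound of the ear pinna skin, profiled as single cells with 3' counting of unique molecular identifiers (UMIs), where each UMI stands for 1 captured RNA molecule. The 4 spiny mouse groups (Acomys cahirinus, wild-type) were injected from day 12 to day 15 with DMSO, the solvent control, or with an inhibitor of ERK, of ErbB2 or of FGFR1/2/3. The kinase ERK acts downstream of both of these receptor types. The 2 groups of CD1 laboratory mice received implanted beads on day 10, carrying either PBS or both FGF2 and NRG1, which are ligands of FGF and ErbB receptors. Each group was 1 library, so there was no replicate, no test and no standard error, and every difference below is between libraries. Brackets hold exact 95% intervals, which cover counting error only and not the spread between animals.

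Libraries held 631 to 15363 cells and 7429819 to 70058081 UMIs, with a median of 3125 to 6915 UMIs per cell, and 184 cell barcodes were found in more than 1 library. The members together had 16965 UMIs in the DMSO library, 1628 with the ERK inhibitor, 16561 with the ErbB2 inhibitor, 6504 with the FGFR inhibitor, 11839 with PBS beads and 51798 with FGF2 and NRG1 beads. Spiny mouse RNA was counted under mouse gene names, so levels are not compared across species. Levels are in CPM, the UMIs of a gene scaled to 1e6 UMIs of the named cell class in that library, and since counting was from the 3' end they are compared within a gene and not between genes.

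Fibroblasts here are cluster 32 of the deposited clustering, whose leading genes included Col1a1, Col1a2 and Col3a1 and 4 of the 12 fibroblast markers. It held 161 cells in the DMSO library, 5 with the ERK inhibitor, 131 with the ErbB2 inhibitor, 38 with the FGFR inhibitor, 32 with PBS beads and 153 with FGF2 and NRG1 beads. Cluster 34 carries the same annotation but led with Schwann cell markers, and it was kept apart. Chondrocytes are cluster 25, which led with Col2a1, Col9a3 and Acan and held 298, 5, 136, 85, 36 and 248 cells in the same order of libraries. In 251 of the 298 DMSO chondrocytes the 18 keratinocyte markers together had more UMIs than the chondrocyte markers, as in 99 of 136 with the ErbB2 inhibitor and 50 of 85 with the FGFR inhibitor. In the mouse this held for 8 of 36 cells with PBS beads and 3 of 248 with FGF2 and NRG1 beads. With DMSO, 3.79% of chondrocyte UMIs and 4.23% of immune cell UMIs came from keratinocyte markers, and the part of this RNA in the chondrocyte values was not tested.

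In build GRCm38 (GENCODE vM21 annotation) the members are protein-coding genes, and several of the proteoglycan genes lie beside each other. Dcn spans chromosome 10 from 97479609 to 97518143, and Lum, from 97565128 to 97572703 on the same strand, follows after a gap of 46.985 kb, with Kera and Epyc, which belong to the same family, next in line. Prelp (chromosome 1, 133910304 to 133921414) and Fmod (chromosome 1, 134037254 to 134048277) are 115.84 kb apart on opposite strands. Ogn (chromosome 13, 49608046 to 49624501) closes a row of Ecm2, Aspn and Omd. Bgn lies on chromosome X from 73483602 to 73495933. The elastic fibre genes are scattered, with Fbn1 on chromosome 2 (125300594 to 125507993), Eln on chromosome 5 (134702593 to 134747323), Fbln1 on chromosome 15 (85205949 to 85286535) and Fbln2 on chromosome 6 (91212455 to 91272540).

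The members were spread over several cell types. Lum, Ogn, Fbn1 and Fbln2 were highest in the annotated fibroblasts in most libraries, Eln, Bgn, Fmod and Prelp in chondrocytes, and Fbln1 in hair follicle or cycling basal keratinocytes, while Dcn was high in both fibroblasts and chondrocytes. In the DMSO library the fibroblast cluster held 76.1% of all Lum UMIs, 62.8% of Ogn, 32.6% of Fbn1 and 36% of Fbln2. Chondrocytes of that library held 80.1% of Eln UMIs, 49.7% of Bgn and 21.4% of Dcn. Endothelium, known to build the elastic wall of vessels together with mural cells, held 41.9% of Fbln2 in the DMSO library and 72.7% with PBS beads. These shares depend on how many cells of each type were captured as well as on the level per cell.

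**Figure D1:**
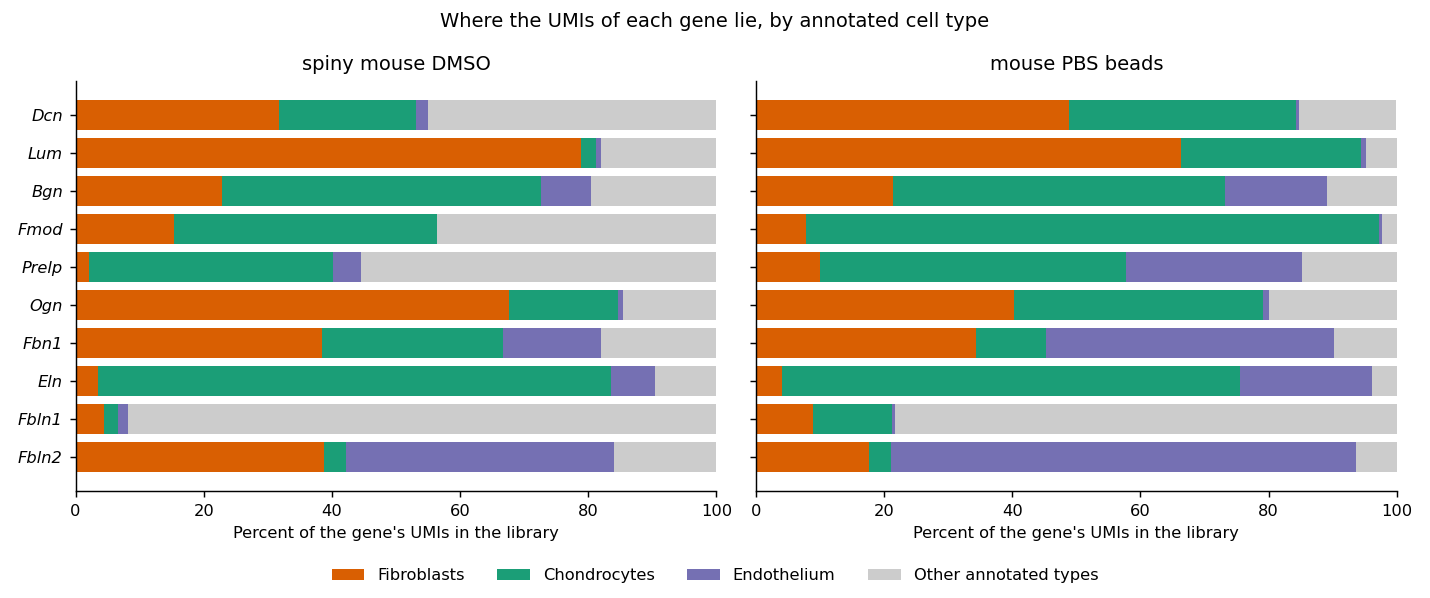
Percent of each gene's UMIs (x axis) found in annotated fibroblasts, chondrocytes, endothelium and all other types, in the spiny mouse DMSO library (left) and the mouse PBS library (right). Eln lies mostly in chondrocytes, Lum mostly in fibroblasts, Fbln2 largely in endothelium, and most Fbln1 UMIs lie outside all 3 of these types.

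Among the proteoglycans, Lum, whose keratan sulfate form keeps collagen fibrils thin, marked the fibroblast cluster. Its level there was 2689 CPM in the DMSO library, 4157 with the ERK inhibitor, 3093 with the ErbB2 inhibitor, 2210 with the FGFR inhibitor, 1394 with PBS beads and 1435 with FGF2 and NRG1 beads. In chondrocytes of the same libraries it was 84.5, 124, 86.7, 136, 364 and 678 CPM. Over the 5 libraries with at least 30 cells of both classes, the log2 ratio of fibroblasts over chondrocytes ran from 1.08 to 5.12 and was at or beyond 1.5-fold in 5 of 5.

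Dcn, which binds collagen I and sequesters TGF-beta, showed no such fixed order. In the fibroblast cluster it was at 1946 CPM in the DMSO library, 10413 with the ERK inhibitor, 2317 with the ErbB2 inhibitor, 2287 with the FGFR inhibitor, 6873 with PBS beads and 1956 with FGF2 and NRG1 beads. Chondrocytes gave 1777, 1467, 3246, 4550, 3094 and 801 CPM in the same order. The log2 ratio of fibroblasts over chondrocytes ran from -0.99 to 1.29, with an interval above 0 in 3 libraries and below 0 in 2. Pooled immune types, where Dcn can serve as a measure of RNA from other cells, were at 44.2, 1.09, 28.7, 18.4, 17.4 and 29.2 CPM, far below either class.

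Bgn, the close relative of Dcn, was lower in fibroblasts than in chondrocytes in 5 of 5 libraries, with log2 ratios of -1.22 to -0.51. Its fibroblast level was 62, 42, 106 and 92.5 CPM in the DMSO, ERK, ErbB2 and FGFR inhibitor libraries, against 146, 216, 193 and 201 CPM in chondrocytes. In the mouse libraries it was 1413 CPM with PBS and 1932 with FGF2 and NRG1 in fibroblasts, and 2812 and 2748 CPM in chondrocytes. The mural-type cluster 38, which is annotated as dermal sheath and papilla but led with Acta2, Rgs5 and Myh11, also had Bgn, at 716 and 903 CPM in the mouse libraries.

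Fmod, which takes part in collagen cross-linking, and Prelp, which anchors basement membranes to collagen, were chondrocyte genes in the mouse. Fmod in chondrocytes was at 773 CPM with PBS and 409 with FGF2 and NRG1, and in fibroblasts at 110.2 and 23.7 CPM. Prelp was at 491 and 211 CPM in mouse chondrocytes and at 144 and 39 CPM in mouse fibroblasts. Both genes were lower in fibroblasts than in chondrocytes in both mouse libraries, with log2 ratios of -4.08 to -2.75 for Fmod. In the spiny mouse fibroblast cluster Prelp had 0 UMIs with DMSO, the ErbB2 inhibitor and the FGFR inhibitor and 1 UMI with the ERK inhibitor. A count of 0 allows up to 2.66, 2.88 and 8.95 CPM there. Spiny mouse chondrocytes had Prelp at 33.6, 45.5 and 45.3 CPM in those 3 libraries, so the gene is countable in this species.

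Ogn, a small proteoglycan also called mimecan, followed fibroblasts. It was at 137, 147, 311 and 122 CPM in the fibroblast cluster of the DMSO, ERK, ErbB2 and FGFR inhibitor libraries, and at 627 and 396 CPM with PBS and with FGF2 and NRG1 beads. Chondrocytes had 40.3, 232, 82.3, 73.6, 376 and 94.8 CPM. The fibroblast level was the higher one in 5 of 5 libraries with at least 30 cells of both classes, with log2 ratios of 0.71 to 2.06, with an interval above 0 in 4 of them.

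Of the elastic fibre genes, Eln had the most one-sided distribution. Chondrocytes were at 374 CPM in the DMSO library, 1528 with the ERK inhibitor, 375 with the ErbB2 inhibitor, 215 with the FGFR inhibitor, 7728 with PBS and 4483 with FGF2 and NRG1. The fibroblast cluster had 12.4, 0, 6.71, 5.96, 699 and 248 CPM. In each of the 5 comparable libraries fibroblasts were lower, by log2 ratios of -5.62 to -3.46. Mouse endothelium was at 460.1 and 379 CPM, against 29.9 and 37.7 CPM in mouse immune types. Spiny mouse endothelium was at 12.4 to 22.5 CPM, against 0 to 1.96 CPM in spiny mouse immune types.

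Fbn1, the main microfibril protein, was spread over several mesenchymal classes and endothelium. The fibroblast cluster was at 219 CPM in the DMSO library, 1743 with the ERK inhibitor, 379 with the ErbB2 inhibitor, 227 with the FGFR inhibitor, 1097 with PBS and 475 with FGF2 and NRG1. Chondrocytes had 204, 865, 321, 198, 235 and 157 CPM. The mural-type cluster was at 178, 220.2, 178, 299 and 313 CPM without the ERK inhibitor library. In the spiny mouse the DMSO, ErbB2 and FGFR inhibitor values of annotated fibroblasts and chondrocytes had overlapping intervals.

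Fbln2, which binds fibrillin and elastin precursor, separated fibroblasts and endothelium from chondrocytes. Its fibroblast level was 409, 1806, 827 and 638 CPM in the 4 spiny mouse libraries in the order above and 680.1 and 709 CPM in the mouse libraries. Endothelium was at 202, 223, 350.1, 279.6, 435 and 537 CPM, and chondrocytes at 41.3, 15.4, 67.2, 39.6, 97 and 99.3 CPM. Fibroblasts exceeded chondrocytes in 5 of 5 libraries by log2 ratios of 2.78 to 3.92, and endothelium by 0.40 to 1.24.

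**Figure D2:**
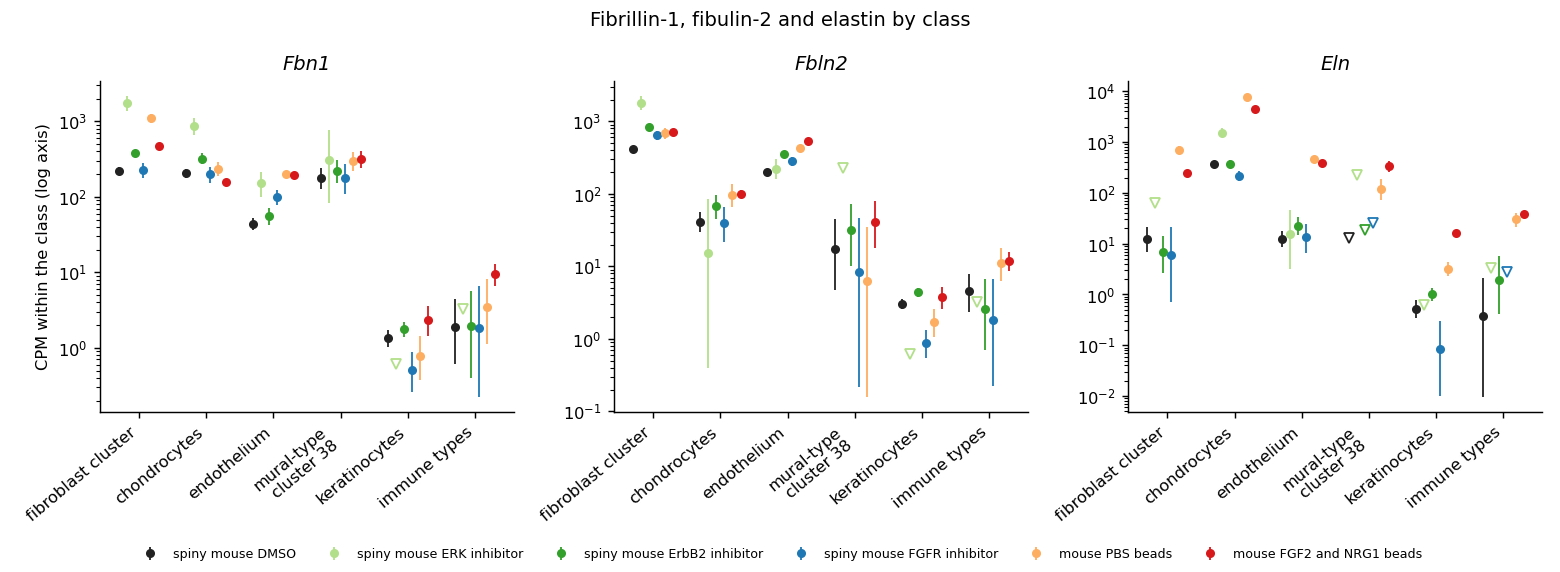
Level of Fbn1, Fbln2 and Eln in 6 cell classes (x axis) as CPM within the class on a log axis, 1 point per library with its exact 95% Poisson interval; an open triangle marks 0 UMIs and stands at the level of 3 UMIs. Eln peaks in chondrocytes, Fbln2 in fibroblasts and endothelium, and Fbn1 is spread over fibroblasts, chondrocytes, the mural-type cluster and endothelium.

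Fbln1, a fibulin of basement membranes and elastic fibres, lay mainly outside these classes. Fibroblasts held 3.75% and chondrocytes 2.11% of its UMIs in the DMSO library. In the 2 mouse libraries these shares were larger, 8.96% to 18.7% in fibroblasts and 9.49% to 12.3% in chondrocytes. The levels there were 31.1 to 91.0 CPM in fibroblasts and 10.3 to 76.4 CPM in chondrocytes. With PBS beads chondrocytes were the highest annotated type, with an interval that overlapped that of hair germ and outer bulge cells. The annotated hair germ and outer bulge cells had 55.6 CPM with DMSO, 76 with the ERK inhibitor, 36.1 with the ErbB2 inhibitor, 54.5 with the FGFR inhibitor, 55.6 with PBS and 40.5 with FGF2 and NRG1. They were the highest type of at least 15 cells in 4 of 6 libraries. Cluster 31, a basal keratinocyte cluster led by Prss22 and Lhx2 and present mostly in the spiny mouse, had 109, 113 and 129.8 CPM in the DMSO, ErbB2 and FGFR inhibitor libraries. Cluster 44 had 108, 152, 147, 60.9 and 81.8 CPM without the ERK inhibitor library, which had 1 such cell.

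Dcn also had an epithelial site. Cluster 44, which is annotated as cycling basal keratinocytes and had Kremen2, Cldn10, Lef1 and Hoxc13 among its leading genes, had Dcn at 591 CPM with DMSO, 295 with the ErbB2 inhibitor, 624 with the FGFR inhibitor, 869 with PBS and 1790 with FGF2 and NRG1. Lum there had 1, 3, 0, 1 and 0 UMIs, where Dcn had 327, 105, 161, 257 and 853. The fibroblast cluster had 0.723 Dcn UMIs per Lum UMI with DMSO and 4.93 with PBS. The 2 genes lie side by side on chromosome 10, and this cluster had Dcn with Lum at or near 0. Fibroblast markers made up 0.0141% of its UMIs with DMSO and 0.00566% with FGF2 and NRG1, against 3.60% and 1.66% in the fibroblast cluster. Hair germ and outer bulge cells of the spiny mouse libraries had Dcn at 244, 313, 294 and 302 CPM, above the immune types of the same libraries.

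**Figure D3:**
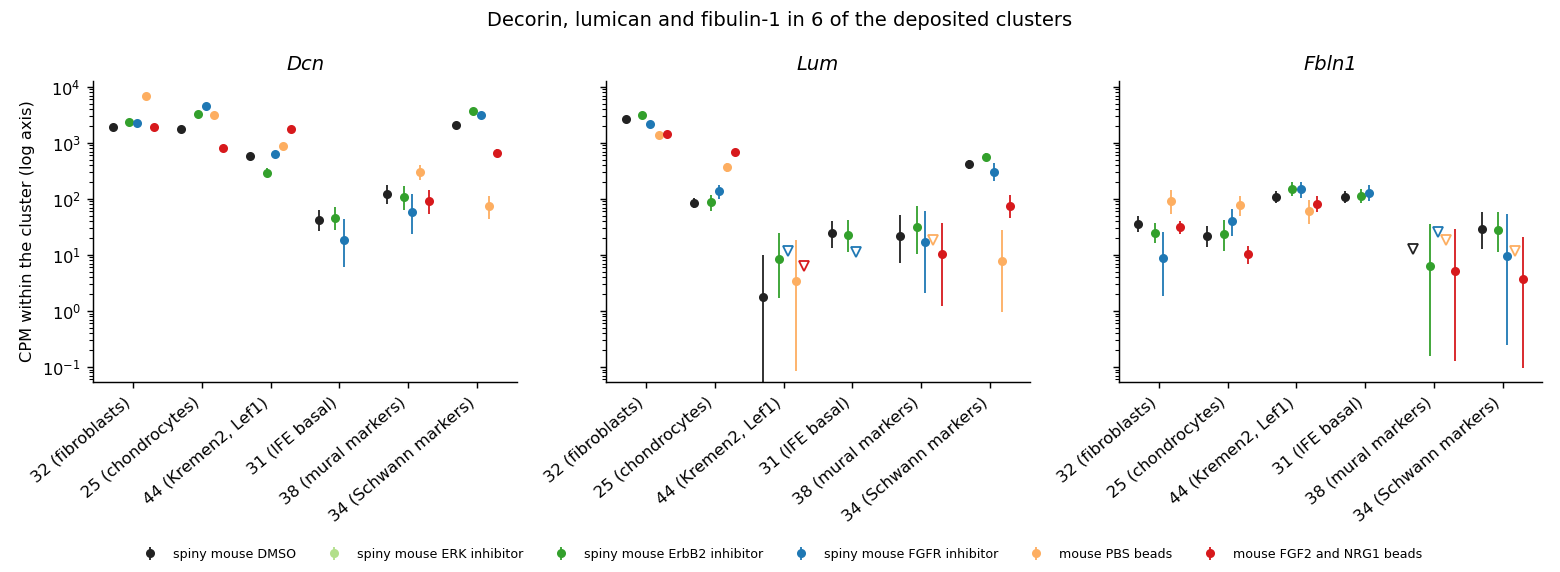
Level of Dcn, Lum and Fbln1 in 6 deposited clusters (x axis) as CPM within the cluster on a log axis, 1 point per library with at least 15 cells, with its exact 95% Poisson interval; an open triangle marks 0 UMIs and stands at the level of 3 UMIs. In cluster 44 Dcn lies between 295 and 1790 CPM while Lum is at or under 3 UMIs, and Fbln1 in clusters 31 and 44 lies above fibroblasts in the spiny mouse libraries shown.

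Cluster 34, annotated as fibroblasts and led by Schwann cell markers, had less Lum than the fibroblast cluster in both species and, in the mouse libraries, less Dcn. Dcn there was at 2068, 3755 and 3188 CPM in the DMSO, ErbB2 and FGFR inhibitor libraries and Lum at 413, 561 and 305 CPM. In the mouse libraries it had Dcn at 73.6 CPM with PBS and 661 with FGF2 and NRG1, and Lum at 7.74 and 75.1 CPM. Fibroblasts exceeded it in Lum in 5 of 5 libraries, by log2 ratios of 2.45 to 6.91. For Dcn the same ratio ran from -0.70 to 6.47, with an interval above 0 in 2 libraries and below 0 in 2.

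Shares of cells with a UMI depend on depth, so cells were thinned to 1000 UMIs each, which left out 3 of 32 fibroblasts with PBS beads and none of the others. After thinning, 85.7% [79.3 to 90.7] of DMSO fibroblasts had a Lum UMI, against 98.1% unthinned. The thinned share was 86.3% [79.2 to 91.6] with the ErbB2 inhibitor, 78.9% [62.7 to 90.4] with the FGFR inhibitor, 41.4% [23.5 to 61.1] with PBS and 65.4% [57.3 to 72.9] with FGF2 and NRG1. Interfollicular keratinocytes, at a median of 4297 UMIs per cell against 5772 in fibroblasts, had a Lum UMI in 1.21% of thinned DMSO cells and immune types in 3.59%. Dcn was found in 73.3% [65.8 to 79.9] of thinned DMSO fibroblasts, 4.44% of keratinocytes and 4.72% of immune cells. Fbln2 was found in 38.5% [31 to 46.5], 0.301% and 0.472% of them.

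**Figure D4:**
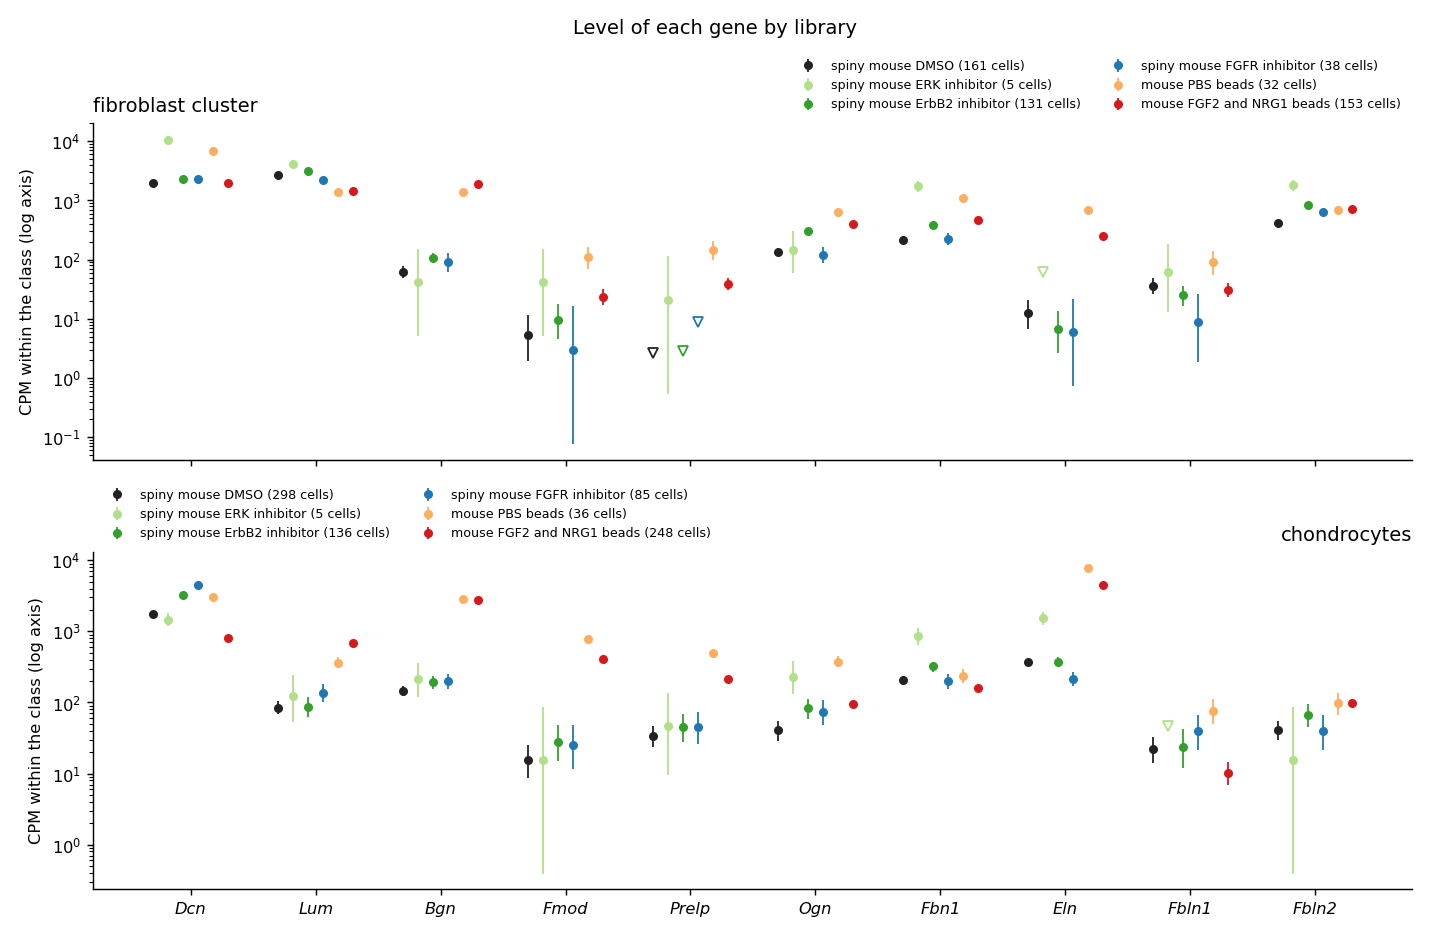
Level of the 10 genes in the fibroblast cluster (top) and in chondrocytes (bottom) as CPM within the class on a log axis, 1 point per library with its exact 95% Poisson interval; an open triangle marks 0 UMIs and stands at the level of 3 UMIs. Spiny mouse and mouse points are not comparable in height, and the 5-cell ERK inhibitor classes have the widest intervals.

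The ErbB2 inhibitor comparison asks which of these matrix genes differ in the spiny mouse when this receptor is blocked. In its fibroblasts Ogn, Fbln2, Fbn1 and Bgn were higher than with DMSO, while Dcn and Lum were within 1.5-fold. Ogn went from 137 to 311 CPM, a log2 ratio of 1.17 [0.90 to 1.46]. Fbln2 went from 409 to 827 CPM, a log2 ratio of 1.01 [0.85 to 1.18]. Fbn1 was at 0.79 [0.56 to 1.03] and Bgn at 0.77 [0.34 to 1.23], and the DMSO and inhibitor intervals of these 4 genes did not overlap. Dcn was at 0.25 [0.17 to 0.34], Lum at 0.20 [0.13 to 0.27] and Fbln1 at -0.52 [-1.31 to 0.20], while Fmod, Prelp and Eln had under 30 UMIs over both libraries and were not counted.

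A gene was called higher or lower from 1.5-fold, with at least 30 UMIs over both libraries. By this rule 4 of 7 members were higher in ErbB2 inhibitor fibroblasts, where 11.6% of all 6100 genes tested were, and 0 of 7 were lower, where 8.08% were. The median log2 ratio of the 7 was 0.77, beside 0.08 over all genes. The fibroblast markers, none of them a member, summed to 4.30% of UMIs with the inhibitor and 3.60% with DMSO, and keratinocyte markers to 1.39% and 3.12%; their part in these ratios was not tested. Scaled to the fibroblast markers, 2 members were higher (Ogn at 0.91 and Fbln2 at 0.75) and 1 was lower, Fbln1. Most of the marker UMIs were from Col1a1, Col1a2 and Col3a1, 33895 of 40602 with DMSO. The share of all genes called was not computed under this or any later alternative setting. In cells thinned to equal depth, Fbn1 was at 0.24.

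Chondrocytes of the ErbB2 inhibitor library had Ogn, Dcn, Fbn1 and Fbln2 above DMSO and no member below it. Ogn was at 1.03 [0.36 to 1.70], Dcn at 0.87 [0.77 to 0.97] and Fbn1 at 0.65 [0.34 to 0.96]. Fbln2 passed 1.5-fold at 0.72 [-0.012 to 1.40], with an interval that includes 0, and Eln was at 0.0070 [-0.26 to 0.26]. These are 4 of 9 members higher (13.5% of 5284 genes) and 0 of 9 lower (10.6%), with a median of 0.46 beside 0.03 over all genes. Chondrocyte markers were higher too, at 1.67% of UMIs against 1.22%. Scaled to them 0 members were higher, and among the 37 and 42 cells led by chondrocyte markers 0 of 4 countable members were higher and Eln was lower, at -0.66.

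With the FGFR inhibitor, the fibroblast members mostly stayed within 1.5-fold of DMSO. Fbln2 passed 1.5-fold with an interval above 0, at 0.65 [0.40 to 0.88], from 409 to 638 CPM. Bgn, from 70 UMIs in DMSO to 31, was at 0.60 [-0.083 to 1.21], an interval that includes 0. Fbln1 was lower at -1.64 [-4.36 to -0.37], on 3 UMIs with the inhibitor and 41 with DMSO. Dcn, Lum, Ogn and Fbn1 were at 0.23 [0.11 to 0.35], -0.28 [-0.40 to -0.17], -0.14 [-0.70 to 0.34] and 0.064 [-0.34 to 0.43].

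Thus 2 of 7 members were higher (11.9% of 5073 genes) and 1 of 7 was lower (9.30%), with a median of 0.064 beside 0.07 over all genes, and these shares rest on 38 inhibitor cells. Only 34 of these and 114 of the DMSO cells were led by fibroblast markers, and among them 0 members were higher, with Fbln2 at 0.52.

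Chondrocytes with the FGFR inhibitor had the proteoglycan genes Dcn, Ogn and Lum and the fibulin gene Fbln1 above DMSO, and Eln below it. Dcn went from 1777 to 4550 CPM, a log2 ratio of 1.36 [1.26 to 1.45]. Ogn was at 0.89 [0.10 to 1.61] and Lum at 0.70 [0.15 to 1.21], while Fbln1, with 14 and 23 UMIs, was at 0.88 [-0.23 to 1.86]. Eln went from 374 to 215 CPM, a log2 ratio of -0.78 [-1.17 to -0.44].

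In all, 4 of 9 members were higher (12.8% of 5065 genes) and 1 of 9 was lower (11.7%), with a median of 0.48 beside 0.03 over all genes. The Eln ratio was -0.43 as a mean over cells and -0.057 after thinning. Among the 32 and 42 cells led by chondrocyte markers, 2 of 5 countable members were higher, Dcn at 1.02 and Lum at 0.62, and 2 were lower, Eln at -1.52 and Fbn1 at -0.90, which turned the median to -0.41. Chondrocyte markers as a whole were level, at a log2 ratio of 0.062 [0.013 to 0.11].

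The ERK inhibitor library had 5 fibroblasts, and 1 of them held 50.2% of their UMIs, so its values describe those cells. Fbn1, Dcn and Fbln2 were higher than with DMSO at 3.01 [2.62 to 3.36], 2.42 [2.28 to 2.56] and 2.16 [1.79 to 2.48], and Lum at 0.64 [0.41 to 0.84]. For each gene on its own, the cell with most of its UMIs held 75 of the 83 Fbn1 UMIs, or 90.4%. It held 73.3% for Fbln2 and 43.1% for Dcn, and this need not be the same cell for each gene. Without the deepest cell of each library Fbn1 was at 3.85, its main cell being another one, Dcn at 3.07 and Fbln2 at 1.29, and as a mean over cells Lum was at -0.16. Fbln1, called higher at 1.17 [-1.54 to 2.44], had 3 UMIs. By count 5 of 7 members were higher (35.0% of 4465 genes), 4 of them with intervals above 0, and 0 of 7 lower (19.9%). The median of 1.17, which is the Fbln1 value itself, stands beside 0.24 over all genes. The fibroblast markers also made up more of these cells, 6.83% of UMIs against 3.60%. The 5 chondrocytes of this library were not compared.

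FGF2 and NRG1 beads in the mouse gave the widest set of differences. In fibroblasts 7 of 10 members were lower than with PBS beads, where 29.1% of 7527 genes were, and none was higher, where 17.8% were. Dcn went from 6873 to 1956 CPM, a log2 ratio of -1.81 [-1.90 to -1.72]. Fbn1 went from 1097 to 475 CPM, at -1.21 [-1.42 to -0.99], and Eln from 699 to 248 CPM, at -1.50 [-1.77 to -1.22]. Fmod was at -2.25 [-2.97 to -1.42], with its 23 PBS UMIs in 3 of 32 cells. Prelp was at -1.91 [-2.51 to -1.22], Fbln1 at -1.60 [-2.32 to -0.72] and Ogn at -0.67 [-0.93 to -0.39].

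Lum, Fbln2 and Bgn did not follow. Lum was at 0.038 [-0.13 to 0.22], Fbln2 at 0.052 [-0.19 to 0.32] and Bgn at 0.45 [0.28 to 0.63]. Dcn and Lum, neighbours in the genome, thus moved apart: Dcn UMIs per Lum UMI were 4.93 with PBS and 1.36 with FGF2 and NRG1. The members' median was -1.36, beside -0.15 over all genes.

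The summed fibroblast markers had a lower ratio than 9 of the 10 members. They made up 6.87% of fibroblast UMIs with PBS and 1.66% with FGF2 and NRG1, a log2 ratio of -2.05 [-2.08 to -2.02], and 11 of 12 were lower. Col1a1, Col1a2 and Col3a1 gave 12465 of the 14337 marker UMIs with PBS and 22960 of 31453 with FGF2 and NRG1. Scaling to the markers is thus mostly scaling to these matrix collagens. Scaled to these markers, 0 members were lower and 5 higher: Bgn at 2.50, Fbln2 at 2.10, Lum at 2.09, Ogn at 1.38 and Fbn1 at 0.84, with Dcn at 0.24. This scaling raises every gene, member or not, by the same amount. The members' place relative to all genes is therefore unchanged, with their median below that of all genes (-1.36 beside -0.15 before scaling). The PBS library had 32 fibroblasts at a median of 4203 UMIs and the other 153 at 11177, and 25 and 146 of them were led by fibroblast markers. In those cells Dcn was at -1.69 and Lum at 0.0097. A single PBS cell held 42.0% of the Ogn UMIs, and 1 PBS cell held 60.9% of the Fmod UMIs. A Fmod UMI was found in 9.38% of PBS cells and 14.4% of FGF2 and NRG1 cells, unthinned. Ogn without the deepest cells was at 0.019 and Fmod at -1.07. After thinning 3 of 7 countable members were lower (Dcn, Eln and Fbn1) and 2 higher (Bgn and Fbln2), and with cluster 34 included 4 were lower and 3 higher.

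Mouse chondrocytes had a like split. Dcn went from 3094 to 801 CPM, a log2 ratio of -1.95 [-2.06 to -1.84], and Eln from 7728 to 4483 CPM, at -0.79 [-0.85 to -0.72]. Fbln1 was at -2.90 [-3.70 to -2.07], Ogn at -1.99 [-2.30 to -1.67], Prelp at -1.23 [-1.47 to -0.96], Fmod at -0.92 [-1.11 to -0.72] and Fbn1 at -0.59 [-0.92 to -0.22]. Lum was higher at 0.89 [0.63 to 1.17], Bgn was at -0.035 [-0.13 to 0.065], and Fbln2, with 33 and 289 UMIs, was at -0.0041 [-0.49 to 0.60].

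By count 7 of 10 were lower (26.6% of 8462 genes) and 1 was higher (13.8%), with a median of -0.85 beside -0.15. Chondrocyte markers were higher in the same cells, from 1.66% to 2.89% of UMIs, and 10 of 16 were higher. A single PBS chondrocyte held 40.8% of the Dcn UMIs, yet without the deepest cells Dcn was at -2.08. Ogn was at -0.61 as a mean over cells and 0.064 after thinning.

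**Figure D5:**
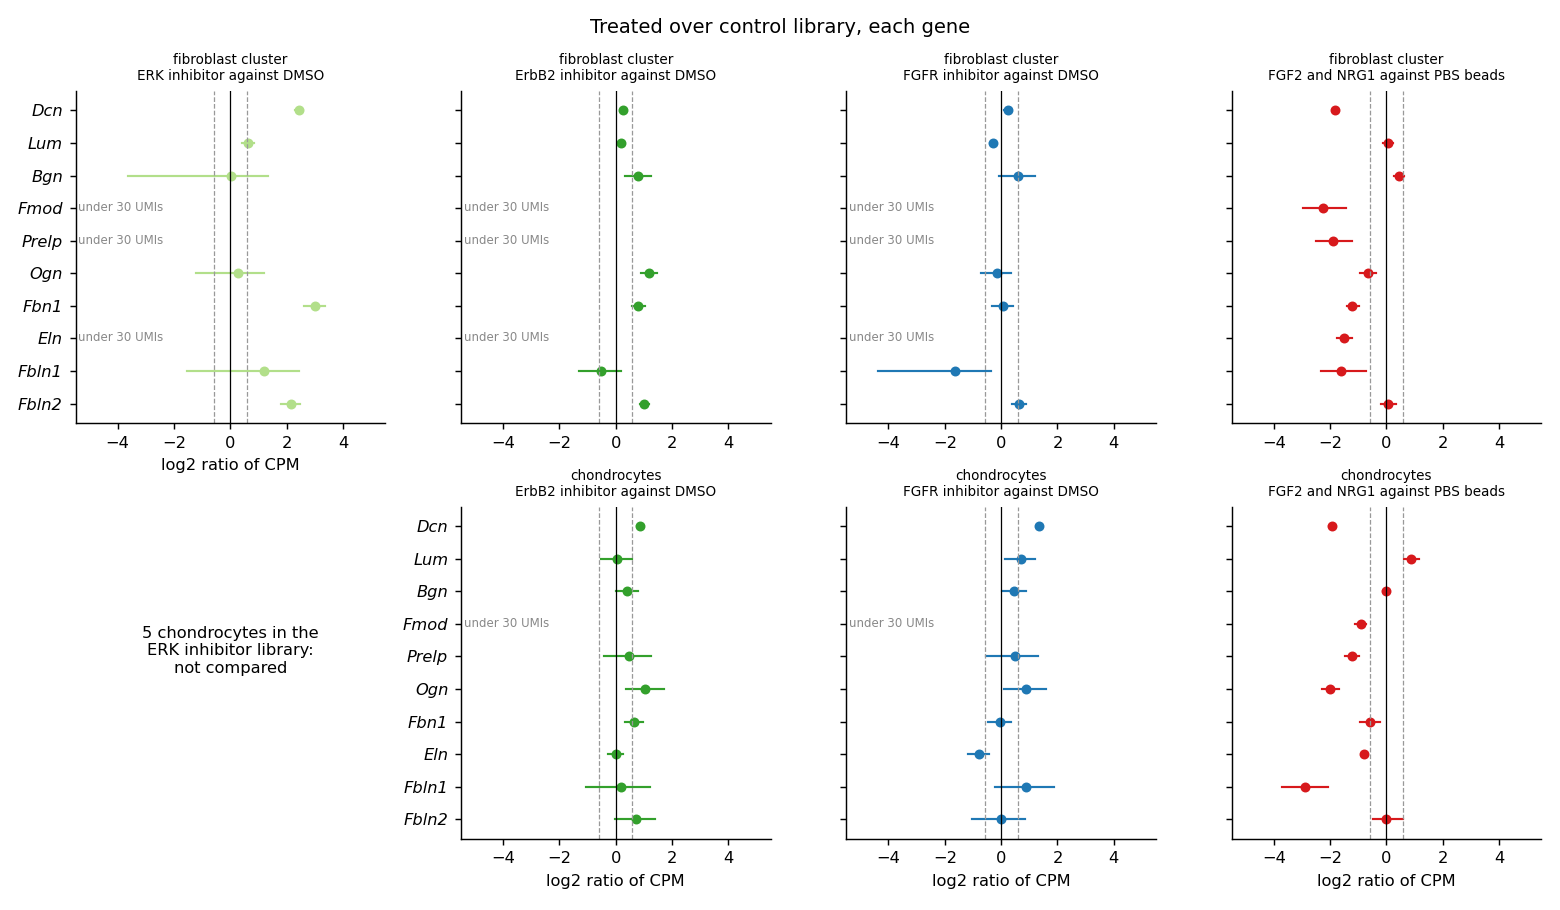
Log2 ratio of CPM, treated over control library, for each gene in fibroblasts (top) and chondrocytes (bottom), with exact 95% intervals for counting error; dashed lines mark 1.5-fold. With FGF2 and NRG1 beads Dcn, Fmod, Prelp, Ogn, Fbn1, Eln and Fbln1 lie left of the line in both classes, while Lum, Bgn and Fbln2 do not.

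The 3 related gene lists were read in the fibroblasts of the same libraries, where the shares of all genes called were those given above: 11.6% higher and 8.08% lower with the ErbB2 inhibitor, 11.9% and 9.30% with the FGFR inhibitor, 35.0% and 19.9% with the ERK inhibitor, and 17.8% and 29.1% with FGF2 and NRG1 beads. In the 5 ERK inhibitor cells the pseudocount of 1 UMI lifts sparse genes, in the lists and in that background. Of the other small leucine-rich proteoglycans, 4 of 11 had enough UMIs with the ErbB2 inhibitor and 1 was higher, Tsku at 0.85 [0.21 to 1.55], with Aspn at 0.54 [0.46 to 0.62]. With the FGFR inhibitor 2 of 4 were called higher, Tsku at 0.79 [-0.21 to 1.66] and Podn at 0.61 [-0.78 to 1.72], both with intervals that include 0. With the ERK inhibitor 3 of 3 were called higher, Tsku and Aspn with intervals above 0 and Ecm2, on 4 UMIs, with one that includes it. With FGF2 and NRG1 beads 4 of 5 were lower, among them Ecm2 at -2.42 [-2.95 to -1.85] and Omd at -2.04 [-2.83 to -1.11], which lie in the same row of genes as Ogn. Epyc, a cartilage proteoglycan in the same row of genes as Lum and Dcn, had 0 UMIs in 32 cells with PBS. With the factors it had 53 UMIs (27.9 CPM) in 153 cells. With the 0 set at its limit of 3 UMIs, the difference was 1.94-fold. The log2 ratio was 2.57, with an exact interval from 0.61 upward. Chondrocyte markers in these fibroblasts summed to 805 CPM with PBS and 1197 with the factors, a log2 ratio of 0.56 [0.35 to 0.81]. Of 11 countable ones, 7 were higher and 2 lower, and the part of cartilage RNA in the Epyc value was not tested.

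A list of 23 genes of microfibril and elastic fibre assembly was read beside the elastic fibre members. With the ErbB2 inhibitor 5 of 15 were higher and 0 lower, with a median of 0.31, among them Mfap5 at 1.14 [0.95 to 1.33], Mfap2 at 0.77 [0.60 to 0.95] and Loxl1, an elastin cross-linking enzyme, at 0.64 [0.44 to 0.85]. With the FGFR inhibitor 5 of 15 were higher and 0 lower, led by Mfap5 at 0.93 [0.66 to 1.18], and with the ERK inhibitor 13 of 15 were called higher, 9 of them with intervals above 0, and 1 lower. FGF2 and NRG1 beads had 11 of 19 lower, 9 with intervals below 0, and 4 higher, with Mfap4 at -2.90 [-3.31 to -2.48], Mfap5 at -2.83 [-3.21 to -2.44] and Loxl2 at -2.77 [-3.07 to -2.47]. The median there was -0.76, above the members' -1.36.

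Enzymes that build chondroitin, dermatan and keratan sulfate chains, the sugar part of these proteoglycans, were sparse. With the ErbB2 inhibitor 3 of 10 countable genes were higher, 2 with intervals above 0, and 0 lower. Chst1 was at 1.38 [0.30 to 2.76] and Chpf, a chondroitin polymerizing factor, at 0.84 [0.35 to 1.37]. With the FGFR inhibitor 2 of 5 were higher, 1 with an interval above 0, and 1 was lower. Chpf was at 1.01 [0.32 to 1.65] and B3gat3 at -0.82 [-1.72 to -0.14]. With the ERK inhibitor only Chpf, at 3.03 [2.12 to 3.77], had an interval above 0 among the 4 countable genes. The other 3 passed 1.5-fold with intervals that include 0, and Xylt2, with 1 UMI at 21 CPM against 25.7 with DMSO, did so through the pseudocount alone. With FGF2 and NRG1 beads 8 of 15 were called lower, 3 with intervals below 0, and 3 higher, 1 with an interval above 0, with Csgalnact2 at -1.51 [-2.30 to -0.51] and Csgalnact1 at 1.18 [0.088 to 3.39], the latter on 4 UMIs with PBS.

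Endothelium was read for the 2 members it held most of, chosen after their values were seen. Fbln2 in endothelium was at 0.80 [0.60 to 0.99] with the ErbB2 inhibitor, 0.47 [0.23 to 0.70] with the FGFR inhibitor, 0.17 [-0.34 to 0.59] with the ERK inhibitor and 0.30 [0.18 to 0.42] with FGF2 and NRG1, each against its control. Fbn1 there went from 44 CPM with DMSO to 98.6 with the FGFR inhibitor, at 1.17 [0.72 to 1.60], and to 150.4 with the ERK inhibitor, at 1.81 [1.13 to 2.37] on 29 UMIs. It was at 0.35 [-0.13 to 0.80] with the ErbB2 inhibitor. With FGF2 and NRG1 beads it was at -0.045 [-0.22 to 0.14]. The share of venous-type cluster 8, led by Ackr1 and Selp, was 35.5% to 43.1% of endothelial cells in the spiny mouse libraries.

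For each member the genes of the most similar profile were sought over 122 cluster and library profiles, among 10788 genes, by Pearson's r of log values. Lum was most like Col1a1 (0.92), Col1a2 and Fn1, and Eln most like the cartilage collagens Col9a1 (0.90), Col2a1 and Col9a2. Ogn was most like Fbn2 (0.94), Fbn1 most like Timp1 (0.94), and Fbln2 most like Loxl1 (0.91). Dcn was most like Col16a1 (0.87), Bgn most like Pdgfrl (0.89), Fbln1 most like Ptn (0.79), and Prelp most like Chrdl2 (0.78). Profiles of 1 library share its depth and free RNA, so these values are descriptions, and Fmod had too few UMIs.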

How the data were processed

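Healing ear punch tissue was taken apart with protease and Dounce strokes, and libraries were made with 10x Genomics 3' reagents, per the labels' protocols. Cell Ranger 6.1.1 and the build mm10, also called GRCm38, are named in the submitters' processing notes. Not given in the sources used here were the filters on cells and the genome behind spiny mouse reads. The authors' deposited table holds whole-number UMI counts for 20381 genes in 39577 cells, and every cell had at least 501 genes. A second deposited table gives the library, cluster, cell type and the percent of mitochondrial UMIs of each cell, per the file headers. The median percent was at or near 0 in the spiny mouse libraries and 4.45 to 4.78 in the mouse.

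From the counts, UMIs of each cell class in each library were added up and scaled to the class total (CPM) with Python 3.11.15, numpy 2.4.6 and scipy 1.17.1. Each ratio is the log2 of the treated CPM over the control CPM, with a pseudocount of 1 UMI, which lifts genes of few UMIs in the smaller class. Their intervals are exact conditional ones and were tried on simulated Poisson counts. That is the model they assume, so the trial could not show how they behave where UMIs gather in single cells. CPM has exact Poisson and shares have exact Clopper-Pearson intervals, all at 95%. A 0 was given a limit of 3 UMIs. Cells were annotated by the authors, and no doublet caller was run. A call needed 30 UMIs over both libraries and 1.5-fold, and chondrocytes at least 30 cells in both libraries. Each group was 1 library, so no test was made. Genes named from each related list were picked among the up to 4 per comparison with the largest absolute ratio, and not all of these are named. For each member the gene or genes of highest correlation were named. The members, lists, classes and tests were chosen with earlier results of these data known. The alternatives were pseudocount, thinning, per-cell means, leaving out the deepest cells, centring, scaling, cell choice, UMI minimum and fold; scaling to marker lists and marker-led chondrocytes were added after seeing the data. Positions come from GENCODE vM21, which is on the same build. Protein and promoter sequences are not used here.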

Additional observations from a re-analysis of the deposited data

Results flagged for a closer look

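Fbln1 with the FGFR inhibitor against DMSO lay on opposite sides in 2 cell classes. The log2 ratio was -1.64 in the fibroblast cluster, on 3 UMIs against 41, and 0.88 in chondrocytes, on 14 UMIs against 23. Each class had 1 library per group, and the chondrocyte interval includes 0, so the difference between the classes was not tested.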

How the results depend on the processing

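No paired analysis was possible because each group was 1 library. Of 215 counts and medians over alternatives, 171 stayed within 1.5 times (counts) or within the spread of the members (medians), 43 moved further and 1, a median past 1.5-fold, changed sign. In all 7 of 69 medians changed sign, 6 of them from a median within 1.5-fold. Of 478 ratios of single members, 12 that were past 1.5-fold changed sign; the cause was not tested where none is given.

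The share of all genes called was not computed under the alternatives, so the counts below have no background and cannot be read against the shares given above. With cells thinned to 1000 UMIs fewer members had 30 UMIs: in fibroblasts 3 were higher with the ERK inhibitor, 2 with the ErbB2 inhibitor, 0 lower with the FGFR inhibitor, and 2 higher and 3 lower with FGF2 and NRG1 beads. In chondrocytes 0 were lower with the FGFR inhibitor, and 0 higher and 4 lower with FGF2 and NRG1, where Ogn turned to 0.064. As a mean over cells, 2 were lower with the ERK inhibitor, 1 higher with the FGFR inhibitor and 1 higher with FGF2 and NRG1 in fibroblasts, Lum turned to -0.16 with the ERK inhibitor, and chondrocytes had 0 lower with the FGFR inhibitor and 2 higher with FGF2 and NRG1. Without the deepest cells Ogn turned to 0.019 in fibroblasts with FGF2 and NRG1.

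Centring on all genes gave 1 lower with the ErbB2 inhibitor, 0 higher with the FGFR inhibitor and 1 higher with FGF2 and NRG1. Cells led by fibroblast markers gave 1 lower with the ErbB2 inhibitor and 0 higher with the FGFR inhibitor. All cells annotated as fibroblasts gave 1 higher with the FGFR inhibitor, and 3 higher and 4 lower with FGF2 and NRG1, with Ogn at 0.30. A minimum of 10 UMIs gave 1 lower with the ErbB2 inhibitor and one of 100 UMIs 0 lower with the FGFR inhibitor. A threshold of 2-fold left 2 higher with the ErbB2 and 0 with the FGFR inhibitor, and leaving keratinocyte markers out of the total left 1 higher with the FGFR inhibitor.

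After seeing the data, fibroblasts were also scaled to fibroblast markers. This gave 3 higher and 2 lower with the ERK inhibitor (Lum at -0.29), 2 higher and 1 lower with the ErbB2 inhibitor and 0 higher with the FGFR inhibitor. With FGF2 and NRG1 it gave 5 higher and 0 lower and turned the median to 0.69, with Dcn at 0.24, Prelp at 0.14, Ogn at 1.38, Fbn1 at 0.84, Eln at 0.55 and Fbln1 at 0.45. The same shift applies to every gene, so the members' place relative to all genes did not change. Scaled to chondrocyte markers, chondrocytes had 0 higher with the ErbB2 inhibitor (median 0.013) and 0 higher with FGF2 and NRG1. In chondrocytes led by their own markers the ErbB2 inhibitor had 0 higher and 1 lower (median -0.10, Fbn1 at -0.033), 2 higher and 2 lower with the FGFR inhibitor (median -0.41), and 2 higher with FGF2 and NRG1.

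The limits are 1 library per group, 5 fibroblasts with the ERK inhibitor, 32 with PBS beads, and few UMIs of Fmod, Prelp and Eln in spiny mouse fibroblasts. Differences in these genes were not detectable there at this depth.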
